A study of Homo sapiens with 4 samples.

Results

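The probe sets described here are those of an Affymetrix expression array to which the platform annotation used here gives no gene symbol. A probe set is a group of short oligonucleotides that reads 1 transcript stretch, and its signal is a brightness, not a count. Of 54613 probe sets, with 62 AFFX control probe sets left out, 11721 had no symbol. The 3233 of these (27.6%) whose mean log2(signal + 1) over all 4 arrays was at least 6.16, a signal of about 70.5, are the unnamed probe sets below. They made up 12.4% of the 26099 probe sets that reached this minimum, beside 21810 with 1 symbol and 1056 with several. The members were thus chosen by their mean signal, and the probe set 230127_at was singled out because its difference after lysophosphatidic acid (LPA) was known to be the strongest. Their brightness and the difference of 230127_at are given as descriptions. A probe set that the annotation does not list is unnamed here, which does not show that it targets no gene.

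Probe sets on this kind of array were designed from clusters of cDNA and expressed sequence tag sequences, and many of those clusters were fragments whose gene was not known. Such probe sets can read long non-coding RNAs, extended or alternative 3′ ends, introns of unspliced transcripts, pseudogenes or antisense RNAs. LPA is a serum phospholipid that acts through G protein-coupled receptors, and within hours it changes transcription through MAP kinase and calcium signalling. The ID of a probe set ends in a suffix that describes its design. A plain _at marks probes for 1 transcript, _s_at and _a_at mark probes shared by several transcripts, often of the same gene, and _x_at marks probes that can bind unrelated sequences. No sequences of these probe sets were used here, so they are shown by ID and by their values on each array.

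The cells were HEK293, an adherent human embryonic kidney line transformed with adenovirus DNA. They were grown with fetal bovine serum and then kept overnight in medium without it. The LPA group (2 arrays) received 1 µM LPA for 2 h. The untreated group (2 arrays, titled Vc, an abbreviation the labels do not explain) has its treatment given as none, and nothing in the labels says whether a vehicle was added. The labels number the arrays 1 and 2 in each group but do not say whether they are separate cultures, so p-values reflect the spread among 4 arrays, which could be technical. Each marker below was read by its brightest probe set. Of the markers of the line, 6 of 6 (VIM, NEFM, NEFL, KRT8, KRT18 and CDH2) read above the minimum signal on all 4 arrays, from 209 to 30202. Among 6 markers of other cell types, PTPRC read at most 49.2 and ALB at most 35.8, PECAM1 read from 48.3 to 130, and COL3A1, CD79A and EPCAM read from 183 to 367. LPA replicate 2 stood apart at the bright end, with a maximum of 62508 against 93776 to 104012 on the other arrays.

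Unnamed probe sets were dimmer than probe sets with 1 symbol. Their median of the mean log2 signal was 7.43, a signal of 171, against 8.86, a signal of 465, for probe sets with 1 symbol. On the single arrays the median signal of the unnamed probe sets was 175 and 169 without LPA and 181 and 190 with it. The share reaching the minimum was 27.6% without a symbol and 53.1% with 1. When all 26099 probe sets were divided into 4 bins of equal size by brightness, 46.0% of the unnamed ones fell in the dimmest bin (signal 70.5 to 155) and 10.4% in the brightest (from 1316). Probe sets with 1 symbol were spread nearly evenly, with 22.1% and 26.6% in these bins. On every array at least the minimum signal was read by 2477 unnamed probe sets (76.6%), against 89.6% of those with 1 symbol.

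**Figure D1:**
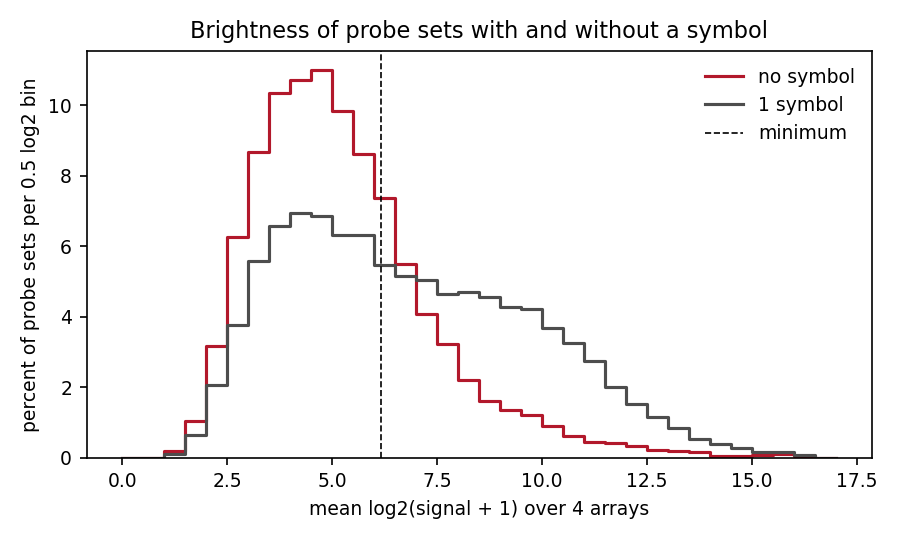
Percent of probe sets in each bin of 0.5 log2 units (y axis) by the mean log2(signal + 1) over 4 arrays (x axis), for the 11721 probe sets without a symbol and those with 1 symbol; the dashed line is the minimum of 6.16. The unnamed probe sets peak below the line, and 27.6% of them lie above it.

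Some probe sets around the minimum had values that were uneven between arrays. Just inside, 242029_at read 28.3 and 128 without LPA and 107 and 63.5 with it, and 1556597_a_at read 48.2 and 38.9 against 92.2 and 142. Just outside, 229728_at read 95.4 and 93.8 against 55.6 and 49.4, and 217206_at read 65.3 and 76.3 against 64.2 and 77.0.

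The IDs give the make-up of the unnamed probe sets. Plain _at probe sets were 2356 of the 3233 (72.9%, against 58.9% among those with 1 symbol), with a median signal of 148. The 440 _s_at probe sets had a median signal of 547, the 369 _x_at ones 223 and the 66 _a_at ones 122, and 1 each ended in _i_at and _g_at. By number, the 796 unnamed probe sets with six-digit IDs starting with 20 or 21 had a median signal of 533, and 43.5% of all unnamed ones in that range reached the minimum. The 1990 with higher six-digit IDs had a median of 152 and the 437 with seven-digit IDs 114, with 29.0% and 14.5% reaching the minimum. The remaining 10 had shorter IDs. Of the 100 brightest unnamed probe sets, 83 had IDs in the lowest six-digit range.

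The brightest unnamed probe sets read lower on LPA replicate 2 than on the other 3 arrays. The brightest, 221798_x_at, read 84813 and 89889 without LPA and 77637 and 46884 with it. For 206559_x_at the signals were 75780 and 78902 against 79548 and 47754, and for 200031_s_at they were 75275 and 79461 against 71625 and 52371. In each case 3 arrays lay close together and LPA replicate 2 lay below them. The next 3 behaved alike: 200017_at read 53656 there against 72487 to 73970 elsewhere, 213801_x_at read 48581 against 71123 to 79366, and 200651_at read 45284 against 66589 to 76799. Over the 100 brightest, LPA was below untreated in replicate number 2 for 77 and in number 1 for 58, with median log2 differences of -0.22 and -0.012. In the brightest of 4 equal bins of all probe sets tested, the median difference in number 2 was -0.050 without a symbol and -0.046 with 1, and in number 1 -0.0010 and 0.0014. LPA replicate 2 had the low maximum given above, and its part in these values was not tested.

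After LPA, the log2 differences of the unnamed probe sets were spread about a median of 0.063, against 0.013 for probe sets with 1 symbol and 0.017 over all 26099. A positive mean difference was found for 1890 (58.5%), where 53.1% of all probe sets tested had one. For 611 (18.9%) both LPA arrays were brighter than both untreated arrays, beside 15.9% of all probe sets tested and 15.4% of those with 1 symbol. Both were dimmer for 369 (11.4%), beside 12.8% of all and 12.8% of those with 1 symbol. With no minimum, over all 11721 unnamed probe sets, the order turned, with 15.3% brighter and 16.7% dimmer. Those with 1 symbol also had fewer brighter than dimmer there. Within replicate numbers the median was 0.0042 for number 1 and 0.11 for number 2, and 0.00071 and 0.032 for probe sets with 1 symbol. With 1 array left out the median of the unnamed probe sets was lowest, 0.018, when untreated replicate 2 was dropped. Dropping LPA replicate 2 gave 0.058, and dropping replicate 1 of the untreated or LPA arrays gave 0.084 or 0.092. With no minimum it was 0.0020, beside -0.0047 for those with 1 symbol. Quantile normalization, which gives every array the same distribution of values, left 0.038, and cyclic loess 0.032, and the median of probe sets with 1 symbol turned to -0.0024 and -0.0048. Median centring gave 0.097, beside 0.047 with 1 symbol. The typical size of a difference was larger without a symbol: the median absolute log2 difference was 0.23, against 0.16 with 1 symbol, and the limma SE had a median of 0.38 against 0.27.

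Within bins of equal brightness the median absolute differences of the 2 classes lay closer. In the dimmest bin the median absolute difference was 0.32 for the unnamed and 0.31 for those with 1 symbol, and in the brightest bin 0.11 for each. The share with both LPA values above both untreated values was 19.7% and 17.3% in the dimmest bin, 20.8% and 18.4% in the next, 17.2% and 15.5% in the third, and 12.8% and 11.0% in the brightest. The share with both below was 12.8% and 14.1% in the dimmest bin, 9.12% and 11.3% in the next, 9.40% and 10.3% in the third, and 14.3% and 15.7% in the brightest. In each of the 4 bins the unnamed probe sets had the higher share above and the lower share below, by at most 2.37 percentage points, and no test of this was made. By ID number the order of the share above turned among seven-digit IDs, with 17.4% without a symbol and 18.7% with 1. It was 17.2% and 13.2% for six-digit IDs starting with 20 or 21, and 19.8% and 17.3% for higher ones. For shorter IDs it was 30% (of 10) and 19.3%. The median difference was 0.086 and 0.040 in the dimmest bin and -0.026 and -0.027 in the brightest.

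**Figure D2:**
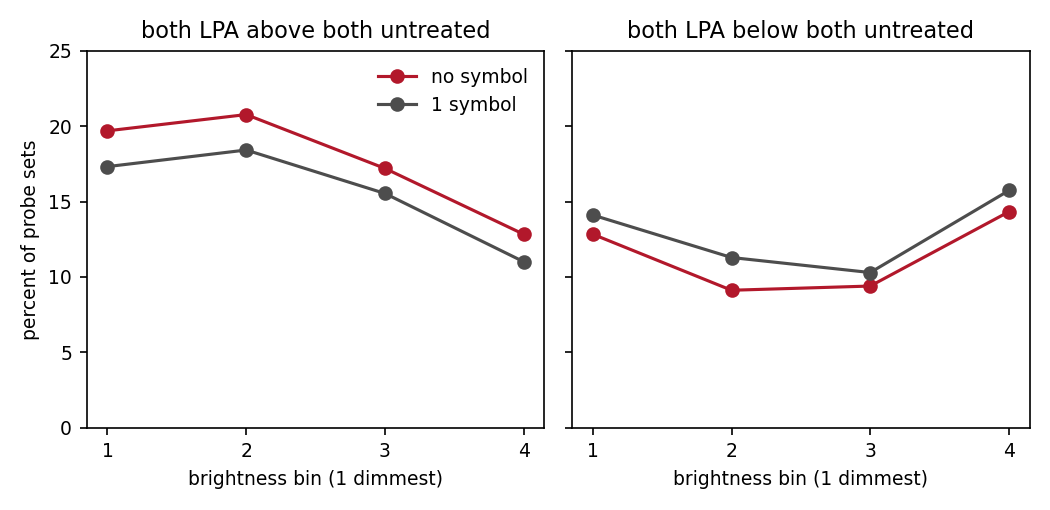
Percent of probe sets (y axis) whose 2 LPA values both lie above (left) or both below (right) the 2 untreated values, in 4 bins of equal size by brightness (x axis), without a symbol and with 1 symbol. Without a symbol the left curve runs from 19.7% in bin 1 to 12.8% in bin 4, and in each bin it lies above that of probe sets with 1 symbol.

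Of the 3233 unnamed probe sets, 1 passed the threshold in the limma fit over all 26099 probe sets (Benjamini-Hochberg adjusted p under 0.05), where 0.00383% of all tested did, and 0 of 21810 with 1 symbol did. That probe set was 230127_at, the one singled out for this difference, so its call is no independent support. Before adjustment, 98 unnamed probe sets (3.03%) had a limma p under 0.05, beside 2.18% of all tested and 445 of those with 1 symbol (2.04%). These shares are below the one that a p under 0.05 gives by definition when nothing differs. From the dimmest to the brightest of 4 equal bins they were 3.63%, 2.64%, 3.20% and 1.19% without a symbol. With 1 symbol they were 3.23%, 1.72%, 2.01% and 1.38%. Of the 98 among 3233, 71 were higher after LPA and 27 lower, beside 408 (1.56%) and 162 (0.621%) of all 26099 tested. The call of 230127_at was lost when limma used 1 prior variance for all brightness levels in place of an intensity trend (0 called, 203 with an unadjusted p under 0.05, adjusted p = 0.555 for 230127_at). A block for the replicate number in the limma model gave 11 called unnamed probe sets, of 91 among all 26099 (73 with 1 symbol). What that number marks is not stated in the labels. Leaving out arrays moved the count: 5 unnamed probe sets were called without untreated replicate 1, of 20 among all 26099 (14 with 1 symbol). Without LPA replicate 1, 8 were called, 7 of them lower, of 48 among all (27 with 1 symbol). Those 7 included the bright 221798_x_at, 206559_x_at and 200651_at, where LPA replicate 2 was the only LPA array left.

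The probe set 230127_at read 358 and 408 on the untreated arrays, and 2739 and 2450 on the LPA arrays. The 2 untreated values lay close together, as did the 2 LPA values, and the groups were far apart. Its mean log2 difference was 2.76, a fold of 6.76, with 2.93 in replicate number 1 and 2.58 in number 2, while the replicates differed by 0.19 in untreated cells and by -0.16 after LPA. On the untreated arrays it lay at percentiles 46.1 and 50.5 of the tested probe sets by signal, and on the LPA arrays at 86.3 and 84.7. It was the largest of the 3233 differences and rank 4 of all 26099, and by the smaller of its 2 within-number differences it was rank 2. Without untreated replicate 1 it was rank 6 among the unnamed probe sets and 37 of all, and without untreated replicate 2 rank 3 and 15. The difference ranged from 2.57 with a pseudocount of 64 to 2.85 without untreated replicate 2, over the alternatives run.

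The probe sets with 1 symbol whose profile over the 4 arrays, centred on its mean, lay nearest to that of 230127_at were dim in untreated cells. The nearest was BMP8B, a secreted ligand of the bone morphogenetic protein family, at 35.1 and 32.4 without LPA and 192 and 187 with it (Euclidean distance 0.38 on the log2 scale). FGD2, an exchange factor for the small GTPase CDC42, read 33.1 and 45.4 against 324 and 455 (distance 0.71). SH3GLB2, a member of the endophilin B family, read 28.8 and 48.1 against 136 and 197 (0.90). For FOSB, which pairs with JUN proteins in AP-1, the signals were 30.0 and 72.4 against 185 and 259 (1.03), and the pseudogene BTF3P13 read 48.2 and 84.5 against 238 and 179 (1.18). Except for 1 value of FOSB and 1 of BTF3P13, these untreated values lay below the minimum signal of 70.5, whereas those of 230127_at were above it. The untreated mean log2 signal of each of these neighbours lay below the minimum, from 5.12 for BMP8B to 6.02 for BTF3P13. They were tested only because their LPA values raised the mean over all 4 arrays. Their dimness without LPA was thus not independent of how probe sets were chosen. The nearest unnamed probe set was 241815_at, at a distance of 1.21. A likeness over 4 arrays of 2 groups says that these features share the step between groups and nothing further.

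Among unnamed probe sets with all 4 values at or above the minimum and no overlap between groups, the next largest difference was that of 214349_at. It read 234 and 500 without LPA and 716 and 1559 with it, differing by 1.62 ± 0.42 on the log2 scale (limma SE, 2 arrays per group). The replicates differed more than for 230127_at, but in both groups alike, and the difference was 1.61 in number 1 and 1.64 in number 2. For 241815_at the signals were 104 and 145 against 357 and 383, a log2 difference of 1.58 ± 0.33. Its replicates differed by 0.48 on the log2 scale in untreated cells and by 0.10 after LPA. The signals of 1562577_at were 92.5 and 102 against 287 and 211 (1.33 ± 0.36). In these 3 the LPA value of either replicate was at least 2-fold above the untreated value of the same number.

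Others had a difference that rested more on 1 array. For 226663_at the untreated values were 318 and 112 and the LPA values 501 and 467, so the log2 difference of 1.35 ± 0.44 was 0.65 in replicate number 1 and 2.05 in number 2. The signals of 239311_at were 101 and 204 against 325 and 370 (1.26 ± 0.38), and those of 222313_at were 75.9 and 129 against 217 and 227 (1.16 ± 0.39). For 215441_at, 111 and 99.7 stood against 174 and 281 (1.07 ± 0.38). The limma adjusted p was 0.99999 for each of these 7 probe sets, so none of them passed in the main fit. With a block for the replicate number, 214349_at, 241815_at and 226663_at passed (limma adjusted p = 1.07e-07, 0.0132 and 0.0159). With a pseudocount of 64 their differences were smaller but kept their sign, from 0.76 for 215441_at to 1.45 for 214349_at.

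**Figure D3:**
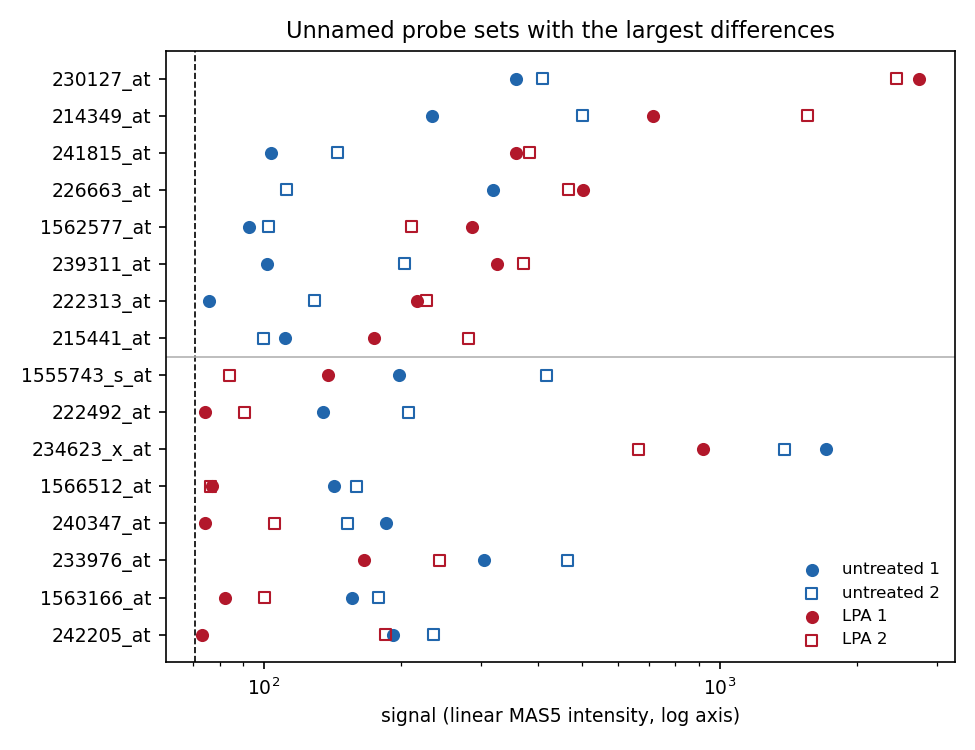
Signal on a log axis (x) of the 8 unnamed probe sets with the largest positive and the 8 with the largest negative difference (rows), chosen with no overlap between groups and all 4 values at or above the dashed minimum of 70.5. Filled circles are replicate 1 and open squares replicate 2, blue untreated and red LPA; 230127_at, in the top row, has the widest gap between its groups.

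The lower values after LPA were smaller in size. The largest negative difference of this kind was that of 1555743_s_at, at 197 and 417 without LPA and 138 and 83.9 with it (-1.41 ± 0.45), with -0.51 in replicate number 1 and -2.30 in number 2. The brightest of them, 234623_x_at, read 1711 and 1386 against 918 and 663. Its difference of -0.98 ± 0.23 was nearly the same in both numbers, -0.90 and -1.06, and its suffix marks probes that can bind unrelated sequences. The signals of 233976_at were 304 and 464 against 165 and 243 (-0.90 ± 0.34), with -0.87 and -0.93 in the 2 numbers.

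The other 5 had at least 1 LPA value between 73.2 and 82.2, close to the minimum signal. For 222492_at the signals were 135 and 208 against 74.1 and 90.7 (-1.02 ± 0.41), and for 1566512_at they were 142 and 160 against 77.0 and 76.4 (-0.97 ± 0.40). For 240347_at 185 and 153 stood against 74.4 and 106, for 1563166_at 156 and 178 against 82.2 and 101, and for 242205_at 192 and 236 against 73.2 and 185. The last of these was separated by a narrow margin, and its difference was -0.20 without LPA replicate 1, against -0.86 with all arrays. The limma adjusted p was 0.99999 for all 8 probe sets with lower values in the main fit. With a block for the replicate number, 234623_x_at passed (limma adjusted p = 4.2e-05).

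The LPA differences of the 2 replicate numbers were compared for each probe set. In both numbers LPA was higher for 1003 unnamed probe sets (31.0%, against 28.4% with 1 symbol) and lower for 674 (20.8%, against 24.6%). The numbers went opposite ways for 1556 (48.1%, against 46.9%). Across the unnamed probe sets, which share their arrays and are not independent replicates, the LPA differences of the 2 numbers correlated with r = 0.052 (n = 3233), and with r = 0.048 across those with 1 symbol (n = 21810).

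LPA was at least 2-fold above untreated in both numbers for 13 unnamed probe sets (0.402%), beside 0.222% of all tested and 41 of those with 1 symbol (0.188%). In the dimmest bin lay 9 of the 13, which is 0.605% of the unnamed probe sets there, where 32 of those with 1 symbol made 0.663%. They were 230127_at, 214349_at, 241815_at, 1562577_at and 9 that were named after their values were seen. Of these 9, 223766_at was the brightest, at 153 and 190 against 334 and 385. For 239826_at 52.9 and 59.4 stood against 154 and 154, for 241679_at 58.0 and 51.2 against 119 and 123, and for 244049_at 66.1 and 76.2 against 137 and 156. Their replicates lay close together in both groups, at signals near the minimum. The other 5 were 209126_x_at, 239366_at, 230503_at, 1559111_a_at and 1558600_a_at, each with at least 1 untreated value below the minimum. For these 5, and for 239826_at and 241679_at, the untreated mean log2 signal lay below the minimum, from 5.53 to 5.83. The minimum was set on the mean over all arrays, so they reached it only through their LPA values. The count of 13 thus depends in part on how probe sets were chosen.

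LPA was at least 2-fold below untreated in both numbers for 4 unnamed probe sets (0.124%), beside 0.0996% of all tested. The signals of 238265_x_at were 123 and 165 against 31.0 and 65.6, those of 244338_at 135 and 115 against 50.4 and 32.7, and those of 233833_at 113 and 173 against 39.1 and 76.0. For 1567703_at, 588 and 80.0 stood against 210 and 31.6, so the groups overlapped although LPA was lower in each number. These 4 were also named after their values were seen. For 238265_x_at, 244338_at and 233833_at the LPA mean log2 signal lay below the minimum, from 5.38 to 5.80. They reached it only through their untreated values.

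**Figure D4:**
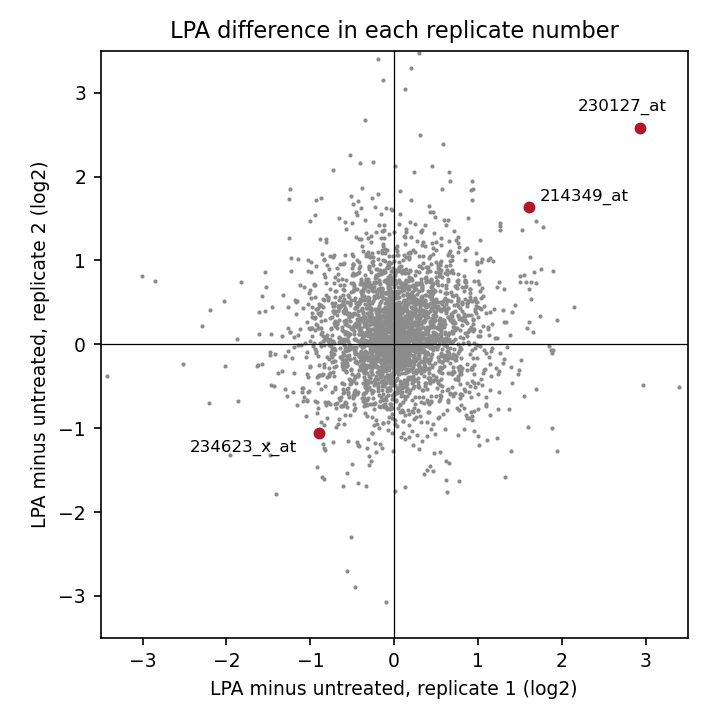
Log2 LPA minus untreated difference in replicate number 1 (x axis) and number 2 (y axis) for the 3233 unnamed probe sets (grey), with 3 named ones in red. The cloud is round (r = 0.052), and 230127_at lies alone at 2.93 and 2.58.

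In untreated cells the median absolute log2 difference between replicates was 0.38 for the unnamed probe sets and 0.29 for those with 1 symbol, and after LPA 0.33 and 0.26. Between LPA and untreated of the same number the medians were 0.28 and 0.33 without a symbol and 0.19 and 0.23 with 1. For 1409 unnamed probe sets (43.6%) replicate 2 differed from replicate 1 in the same direction in both groups and by more than LPA differed from untreated, beside 47.3% of all tested and 47.9% of those with 1 symbol. Within brightness bins these shares were 37.6% and 38.7% in the dimmest, 45.1% and 43.9% in the next, 52.8% and 53.1% in the third and 52.5% and 54.1% in the brightest. In both classes the share was lowest in the dimmest bin. Across the unnamed probe sets the replicate difference in untreated cells correlated with that after LPA with r = 0.23 (n = 3233), and with r = 0.28 across those with 1 symbol (n = 21810). The correlation rose with brightness. It was 0.15 and 0.12 in the dimmest bin, 0.33 and 0.32 in the next, 0.54 and 0.53 in the third and 0.55 and 0.59 in the brightest.

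Among unnamed probe sets with all 4 values at or above the minimum, the lowest values of replicate 2 relative to replicate 1 belonged to bright features. For 224354_at the signals of replicate 1 were 10780 in untreated cells and 6282 after LPA, and those of replicate 2 were 1867 and 1877. For 1555623_at replicate 1 read 8263 and 4753 and replicate 2 read 2363 and 1287. Its log2 LPA difference was -0.80 in number 1 and -0.88 in number 2. With a block for the replicate number it passed (limma adjusted p = 4.2e-05). For 233847_x_at replicate 1 read 3590 and 1572 and replicate 2 read 605 and 590. In all 3 both arrays of number 1 lay above both arrays of number 2, with mean log2 differences (2 minus 1) of -2.14, -1.84 and -1.99. The requirement on all 4 values leaves out dim features whose replicate 2 falls below the minimum. Without it, larger drops belonged to 242790_at and 1567703_at in the dimmest bin, both at -2.78 and named after their values were seen. For 242790_at replicate 1 read 251 and 275 and replicate 2 read 12.3 and 109.

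In the other direction, with all 4 values again at or above the minimum, the features with the largest differences were dim. For 1557240_a_at replicate 1 read 89.6 and 118 and replicate 2 read 245 and 321, a mean log2 difference of 1.44. The signals of 1562852_at were 102 and 70.8 in number 1 against 191 and 268 in number 2, and those of 233365_at were 106 and 108 against 257 and 288. In both groups replicate 2 was at least 2-fold below replicate 1 for 23 unnamed probe sets, beside 0.333% of all tested, and at least 2-fold above it for 20, beside 0.46%. These 43 were 1.33% of the unnamed probe sets, beside 0.793% of all tested and 0.702% of those with 1 symbol. Most of them were dim. In the dimmest bin they were 30 of 1488, against 84 of 4827 with 1 symbol, and in the next 7 of 910 against 39 of 5402. In the third bin they were 4 of 500 against 14 of 5779, and in the brightest 2 of 335 against 16 of 5802. One of the 20 was 214349_at. What the replicate number stands for is not stated in the labels, and 230127_at did not follow it, with a mean difference of 0.014.

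**Figure D5:**
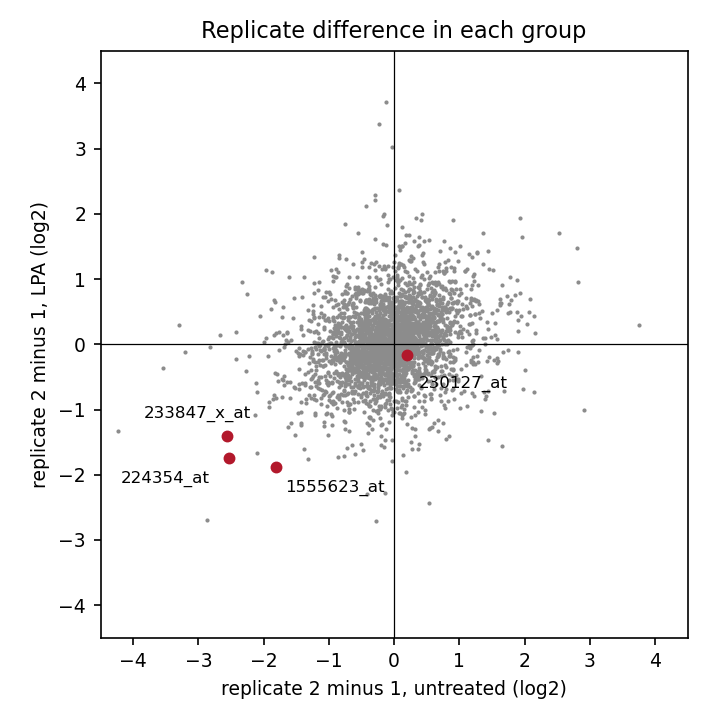
Log2 difference of replicate 2 minus replicate 1 in untreated cells (x axis) and after LPA (y axis) for the 3233 unnamed probe sets (grey), with 4 named ones in red. The cloud leans along the diagonal (r = 0.23), and 230127_at lies near 0 on both axes. The 3 bright probe sets in red far down the diagonal were chosen with all 4 values at or above the minimum.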

How the data were processed

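Signals of 54675 probe sets were measured on 4 arrays. The deposited values are linear intensity values, and the submitters' processing notes name MAS5. Its version, its scaling target and its detection calls were not given in the sources. The mean after trimming 2% at each end was 500.1 on every array, so arrays had been scaled before deposit. The number of arrays limits the precision.

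Values were taken as log2(intensity + 1), which understates differences of dim probe sets only slightly at the minimum signal. All 26099 probe sets reaching the minimum were fitted together with limma 3.58.1 in R 4.3.3 (lmFit, eBayes with intensity trend, two-sided), and p-values were adjusted over all of them by Benjamini-Hochberg. The fit was tested on simulated data: at 2-fold 68% of 100 changed probe sets were recovered, at 4-fold 98% of 50, at 8-fold 100% of 50, and 5 unchanged ones were called. The simulated noise was independent between arrays, with an SD set by brightness alone. It held no spread particular to a probe set and no replicate number difference, so these percents do not give the recovery on the real arrays. In the real fit FGD2, at 9.67-fold, had a limma adjusted p of 0.205. The members and lists were chosen with earlier results of these data known.

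Named were 230127_at, the 8 largest differences in each direction without overlap and with all values at the minimum, the 6 brightest, the 3 largest replicate differences in each direction, 2 on either side of the minimum, called probe sets and the 5 nearest profiles. Alternatives covered normalization, pseudocount, minimum, suffix, array left out, replicate block and variance model. Probe sets below the minimum were left out, as were sequences.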

Additional observations from a re-analysis of the deposited data

How the results depend on the processing

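Of 81 recomputed values, 64 stayed on their side of the threshold or within the tolerance, which was 1.5 times for counts and shares, 0.075 for the median difference (its SD between replicate numbers) and 0.072 for brightness (its SD between arrays). That tolerance is wide: it takes in the fall of the median difference from 0.063 to 0.0020 with no minimum, and the turn of the shares there to 15.3% higher and 16.7% lower. Counts of called probe sets and the adjusted p are from limma. A replicate block in the model gave 11 called unnamed probe sets (3 lower) of 91 among all 26099 (73 with 1 symbol), and 5 of 14 (6 with 1 symbol) with quantile normalization added to the block, against 1 of 1 without it. The 11 included 214349_at (adjusted p = 1.07e-07), 241815_at (0.0132), 226663_at (0.0159), 234623_x_at (4.2e-05) and 1555623_at (4.2e-05). The labels do not say what the number marks. Deviations of same-numbered arrays correlated with r = 0.27 across all tested probe sets. In the brightest of 4 bins r was 0.55 without a symbol and 0.59 with 1, and 2 pairs are too few to show a pairing. Without the intensity trend 0 were called (203 with an unadjusted p under 0.05), and 230127_at kept its difference of 2.76 with adjusted p = 0.555, in a range of 1.36e-18 to 0.555. Leaving out 1 array gave 1 to 8 called, 34.0% to 41.8% higher and 25.5% to 31.8% lower without overlap, since 3 arrays separate more easily than 4. Median brightness was 4.93 with no minimum, 8.46 with the minimum raised by 1, and 7.22 for plain _at suffixes. Requiring all 4 values at the minimum was chosen after seeing the data, and left 1 called, 18.9% higher and 10.5% lower.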
